A study of Mus musculus with 72 samples.

Results

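The distal intergenic peaks of open chromatin in RAW264.7 cells are the 7059 peaks, of 51984 in the deposited ATAC-seq table, that lie off the mitochondrial chromosome, carry an intergenic label in both the annotation and the detailed annotation (so outside annotated repeats and CpG islands), and sit more than 20 kb from the nearest annotated transcription start site. RAW264.7 is an established mouse macrophage-like cell line. ATAC-seq reads are cut by a transposase where DNA is accessible, so the value of a peak rises with accessibility. The 9 ATAC libraries hold 3 of cells carrying a lentiviral hairpin against GFP (shGFP, the control), 3 with a hairpin against NCOR (shNCOR) and 3 with a hairpin against SMRT (shSMRT). All 3 groups carry a lentiviral hairpin, were kept in ordinary medium with serum, and received no added ligand. RNA-seq of the same 3 groups, again with 3 libraries each, gives the RNA of the gene the authors' table names as nearest to each peak. The labels call the source a monocyte, do not say whether the replicates came from separate cultures or whether a line is 1 clone, and describe the ATAC cells in the protocol as wild type, although the sample titles name the hairpins. P-values therefore rest on the variation among the 3 libraries of a group, and some of it may be technical.

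NCOR and SMRT are paralogous corepressors. They bridge transcription factors, unliganded nuclear receptors among them, to a histone deacetylase complex that keeps chromatin at regulatory DNA deacetylated. In macrophages most enhancers lie far from promoters and are opened by lineage factors such as PU.1, C/EBP, AP-1 and RUNX proteins, and distal accessible sites of this kind differ between cell states far more than promoters do. Distance and nearest gene are positional labels: an enhancer can act on a gene other than its nearest.

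The deposited table is on mouse build mm10, which carries the same coordinates as GRCm38: 76.3% of its promoter peaks overlapped a RefSeq promoter window of GRCm38.p6. No genome was used, so sequence could be shown only where a distal peak overlapped a RefSeq promoter window (250 bases before to 50 after a start site) of a gene that the peak annotation did not use. This held for 130 of the 7059 distal peaks, and 119 of these windows belong to long non-coding RNA genes. The 6 below are the overlapping parts of windows whose peak changed at an adjusted p under 0.001 with no overlap between the groups' libraries; 5 of them were chosen after their values were seen. They are shown so that the accessible DNA behind the values can be read. Bases are 5′ to 3′ on the RNA gene's strand, and capitals mark matches, on either strand, to letters of macrophage factor motifs: AP-1 (TGANTCA), PU.1 (GAGGAA), C/EBP (TTGCNNAA), RUNX (TGTGGT), a nuclear receptor half-site (AGGTCA) and the E-box CACGTG.
Gm38137 window: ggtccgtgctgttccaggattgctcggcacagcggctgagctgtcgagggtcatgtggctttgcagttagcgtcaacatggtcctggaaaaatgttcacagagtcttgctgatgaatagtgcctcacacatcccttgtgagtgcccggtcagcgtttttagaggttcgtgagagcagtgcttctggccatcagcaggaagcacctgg
Gm39608 window: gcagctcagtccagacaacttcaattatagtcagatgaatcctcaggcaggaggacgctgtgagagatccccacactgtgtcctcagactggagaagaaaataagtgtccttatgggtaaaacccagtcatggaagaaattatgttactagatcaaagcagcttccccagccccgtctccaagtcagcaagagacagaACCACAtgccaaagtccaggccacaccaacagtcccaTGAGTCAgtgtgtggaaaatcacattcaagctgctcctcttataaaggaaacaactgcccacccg
Gm30411 window: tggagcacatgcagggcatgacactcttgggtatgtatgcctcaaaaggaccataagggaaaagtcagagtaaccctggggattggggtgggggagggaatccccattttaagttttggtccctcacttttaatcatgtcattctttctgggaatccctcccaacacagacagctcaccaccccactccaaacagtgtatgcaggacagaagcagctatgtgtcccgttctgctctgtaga
Gm33596 window: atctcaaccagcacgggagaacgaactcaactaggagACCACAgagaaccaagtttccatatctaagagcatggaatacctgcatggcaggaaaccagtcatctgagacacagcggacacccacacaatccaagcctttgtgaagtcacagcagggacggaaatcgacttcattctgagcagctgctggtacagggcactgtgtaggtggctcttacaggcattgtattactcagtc
Gm38762 window: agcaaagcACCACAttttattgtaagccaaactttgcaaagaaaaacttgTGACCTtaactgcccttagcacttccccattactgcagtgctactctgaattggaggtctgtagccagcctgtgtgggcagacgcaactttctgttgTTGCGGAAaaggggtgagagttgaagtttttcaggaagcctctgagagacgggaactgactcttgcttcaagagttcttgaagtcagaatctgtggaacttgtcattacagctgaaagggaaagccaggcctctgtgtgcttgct
Gm32633 window: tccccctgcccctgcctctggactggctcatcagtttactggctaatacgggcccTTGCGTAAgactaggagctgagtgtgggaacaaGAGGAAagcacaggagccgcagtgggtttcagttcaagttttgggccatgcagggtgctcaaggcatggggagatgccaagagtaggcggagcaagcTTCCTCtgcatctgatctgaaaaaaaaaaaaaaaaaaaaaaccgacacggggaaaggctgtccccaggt
None of the 6 motifs was found in the first and the third sequence, at chr1:60862945-60863151 on the plus strand (peak named for Ctla4) and chr13:106760848-106761088 on the minus strand (peak named for Ipo11). The second, at chr11:20898695-20898994 on the minus strand (Lgalsl), held an AP-1 and a RUNX match, and the fourth, at chr17:80809385-80809621 on the minus strand (Map4k3), a RUNX match. The fifth, at chr6:5362065-5362356 on the plus strand (Asb4), held RUNX, half-site and C/EBP matches, and the sixth, at chr7:64001654-64001907 on the plus strand (Klf13), a C/EBP and 2 PU.1 matches. Across the 130 windows under distal peaks, AP-1 letters were present in 18.5%, against 7.81% of all 32851 promoter windows of the same length. PU.1 letters were present in 43.1% against 28.3%, half-site letters in 21.5% against 16.3%, C/EBP letters in 14.6% against 10.8%, RUNX letters in 19.2% against 16.8% and the E-box in 6.92% against 7.15%. These are shares of windows that hold the letters, with no test. The sets were not matched for gene type, accessibility or base composition.

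The accessibility of the 6 sequences moved in different ways, in reads per 10000000 reads of the library, the unit of every ATAC value here. At the Gm39608 window the peak measured 30.2, 27.2 and 36.0 in the 3 shGFP libraries, 60.7, 18.1 and 55.8 in shNCOR and 87.3, 108 and 130.2 in shSMRT. Only the shSMRT libraries stood clear of the control, by 1.64 ± 0.25 (log2 change ± SE, on the log2(value + 5) scale of all ATAC changes below; adjusted p = 3.54e-06). The Gm38762 peak rose in both knockdowns, from 33.5, 52.5 and 39.6 to 100.3, 74.3 and 112 in shNCOR and 93.9, 94.2 and 113 in shSMRT. The Gm30411 peak fell most in shNCOR, from 191, 196 and 191 to 52.8, 85.8 and 54.5, a log2 change of -1.54 ± 0.15, and measured 147, 113 and 139 in shSMRT, below the control too. At the Gm32633 window the values were 92.8, 60.9 and 72.8 in shGFP, 38.3, 26.4 and 30.4 in shNCOR, all below the control, and 56.3, 70.3 and 63.7 in shSMRT, which overlapped it.

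In RNA the NCOR-encoding gene Ncor1 measured 18.4, 20.2 and 18.7 RPKM (reads per kilobase of transcript, scaled to library size) in shGFP, 3.61, 4.20 and 4.30 in shNCOR and 18.9, 20.2 and 20.2 in shSMRT, a change of -2.00 ± 0.06 (log2 ± SE) in shNCOR (adjusted p = 8.89e-10). All 8 macrophage markers were expressed in every group, summing to 7062 to 7215 RPKM in shGFP, 8200 to 8485 in shNCOR and 9997 to 10538 in shSMRT. Lymphocyte markers summed to 0.87 to 1.62 RPKM over all 9 libraries, neutrophil markers to at most 0.54, and fibroblast and epithelial markers to at most 0.017, with 1 of 5, 2 of 4 and 3 of 5 genes of these lists at 0 in all 9 libraries.

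The distal peaks had lower values than the table as a whole and were less often in every library's peak list. Their median value in shGFP was 43.7, against 54.2 in the 5658 intergenic peaks within 20 kb of a start site (near-intergenic peaks), 167 in the 9213 promoter peaks and 59.3 over all peaks. Of the distal peaks 42.2% stood in the peak lists of all 9 libraries, against 83.4% of promoter peaks. The median distance to the start site was 49.0 kb (quartiles 31.0 and 88.7 kb), and the farthest peak lay 1476 kb from that of D3Ertd751e. Upstream of the start site lay 4049 peaks and downstream 3010, and the median width was 338 bp. They named 3348 genes: 5581 peaks were nearest a protein-coding gene and 1380 a non-coding RNA gene, and 55.3% were nearest a gene expressed highly enough for the RNA test (at least 1 RPKM in 3 libraries). Distal peaks made up 9.10% of the peaks on chromosome 7 and 19.2% on chromosome 13. Although annotated as intergenic in the deposited table, 1605 of them (22.7%) lay over a RefSeq gene body, 1163 of these a long non-coding RNA gene and 323 a protein-coding gene.

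How much of the open-chromatin signal was distal differed between the groups. Distal peaks held 9.43%, 9.63% and 9.66% of the reads in peaks in shGFP, 9.13%, 9.01% and 9.43% in shNCOR and 10.6%, 10.2% and 10.2% in shSMRT. The shSMRT libraries were the highest 3 of the 9, and the highest shNCOR library stood level with the lowest shGFP library. The mean ± SD was 9.57 ± 0.13%, 9.19 ± 0.22% and 10.3 ± 0.20% (n = 3 each), and an exact two-sided permutation test over all 1680 assignments of the 9 libraries to 3 groups gave p = 0.00357, the smallest it can give (0.0214 adjusted over the 12 tests of this family). The log2 ratio of distal to near-intergenic signal averaged 0.06 in shGFP, 0.01 in shNCOR and 0.14 in shSMRT (exact permutation p = 0.00357, adjusted 0.0214). The log2 ratio of distal to promoter signal averaged -1.88, -1.97 and -1.67 (exact permutation p = 0.00714, adjusted 0.0286). Each pair of groups has only 3 libraries a side, so that its exact permutation p cannot go below 0.1.

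**Figure D1:**
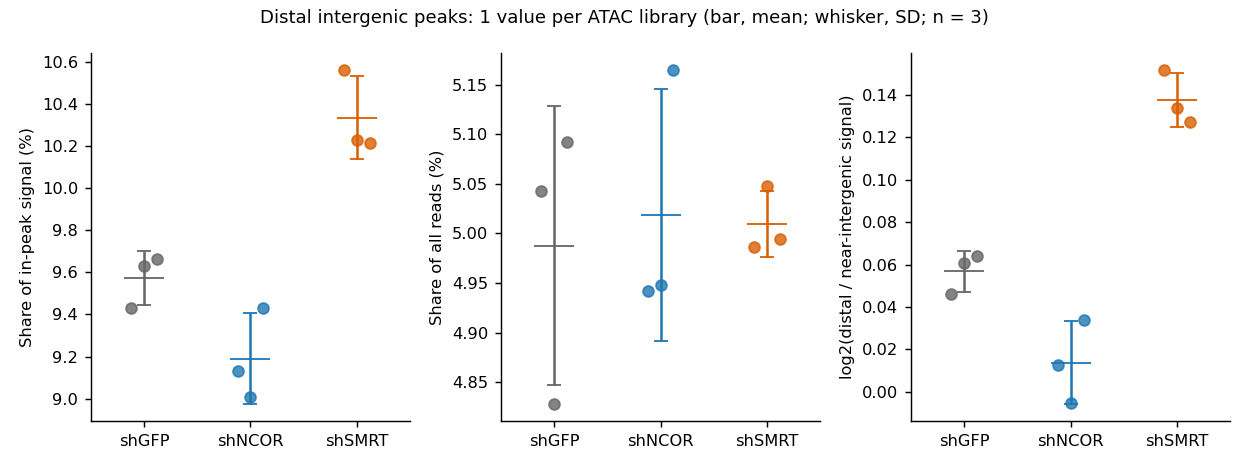
Signal in the 7059 distal intergenic peaks, 1 point per ATAC library, with the group mean (bar) and SD (whisker, n = 3): left, as a percent of the reads in all peaks; middle, as a percent of all reads of the library; right, as the log2 ratio to the near-intergenic peaks. The axes do not start at 0. In the left and right panels the 3 shSMRT libraries lie above the other 6, while in the middle panel all 9 lie between 4.83% and 5.16% and the groups overlap.

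Measured against all reads of the library, the distal share did not separate the groups. It was 5.04%, 4.83% and 5.09% in shGFP, 4.94%, 4.95% and 5.16% in shNCOR and 4.99%, 5.05% and 4.99% in shSMRT (exact permutation p = 0.946). Reads in all peaks made up 50.6% to 54.0% of the library in shGFP, 54.7% to 55.7% in shNCOR and 47.7% to 49.9% in shSMRT. The larger share of distal reads among peak reads in shSMRT thus goes with a smaller share of reads in promoter peaks, 31.9%, 33.3% and 33.3% of peak reads against 35.9%, 34.9% and 34.7% in shGFP. Whether library quality contributes was not tested.

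Single peaks were tested with the limma package on log2(value + 5) over all 51466 peaks that reached a value of 10 in 3 libraries, 6998 of them distal (61 distal peaks stayed below), and a peak is called at a Benjamini-Hochberg adjusted p under 0.05. Both comparisons with control use the same 3 shGFP libraries. After the NCOR hairpin 363 distal peaks rose (5.19%) and 478 fell (6.83%), against 4.6% and 4.01% of all tested peaks. After the SMRT hairpin 843 distal peaks rose (12%) and 541 fell (7.73%), against 6.81% and 10.9% of all tested peaks. Leaving out the second shGFP library reduced the 363 to 197, and leaving out shGFP library 1, 2 or 3 reduced the 478 to 285, 310 or 278. The 541 became 329 and 336 without shGFP library 1 or 3. The promoter peaks went the other way in the SMRT comparison, with 140 higher and 2095 lower. Intron peaks outside repeats and CpG islands had more higher than lower calls there too, 8.11% against 7.07%. In the direct comparison of shSMRT with shNCOR 1000 distal peaks were higher (14.3%) and 605 lower (8.65%), against 6.92% and 17.5% of all tested peaks. Changes of at least 1 log2 unit numbered 446 higher and 86 lower distal peaks in shSMRT, and 69 higher and 213 lower in shNCOR. Over all tested peaks these numbers were 1627 and 497 in shSMRT and 420 and 856 in shNCOR, with the same direction of imbalance. The median change over all tested distal peaks was -0.02 in shNCOR and 0.02 in shSMRT, beside 0.05 and -0.09 over all peaks. Call shares of the classes were not tested against each other.

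The split between higher and lower calls depended on the scaling. Of the distal calls 43.2% were higher in shNCOR, 60.9% in shSMRT and 62.3% in shSMRT against shNCOR. Scaling each library to its reads in peaks moved these to 30%, 76.3% and 85.4%, and quantile normalization gave 77% for the last. The median over all peaks moved from -0.09 to 0.00 in shSMRT and from -0.12 to 0.04 in shSMRT against shNCOR under scaling to reads in peaks, and that over the distal peaks from 0.02 to 0.11 and from 0.05 to 0.21. The median of the distal peaks lay above that of all peaks in these 2 comparisons, and below it in shNCOR, under all 3 scalings.

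Called peaks became more frequent with distance from the start site in the SMRT comparison. Distal peaks higher in shSMRT made up 8.63% of those at 20 to 30 kb, 10.6% at 30 to 50 kb, 12.2% at 50 to 100 kb, 15.6% at 100 to 200 kb and 22.5% of the 404 at 200 to 500 kb. Beyond 500 kb the share was 14.5% of 62 tested peaks. Those lower in shSMRT ranged between 4.21% and 8.55% with no such order. In shNCOR the lower calls went from 5.08% at 20 to 30 kb to 9.92% at 100 to 200 kb and 8.66% at 200 to 500 kb, while the higher calls stayed between 3.23% and 5.94%. The same order of the shSMRT-higher shares up to 500 kb was found after scaling to reads in peaks (11.6% to 26.5%) and after quantile normalization (10.8% to 24.3%).

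**Figure D2:**
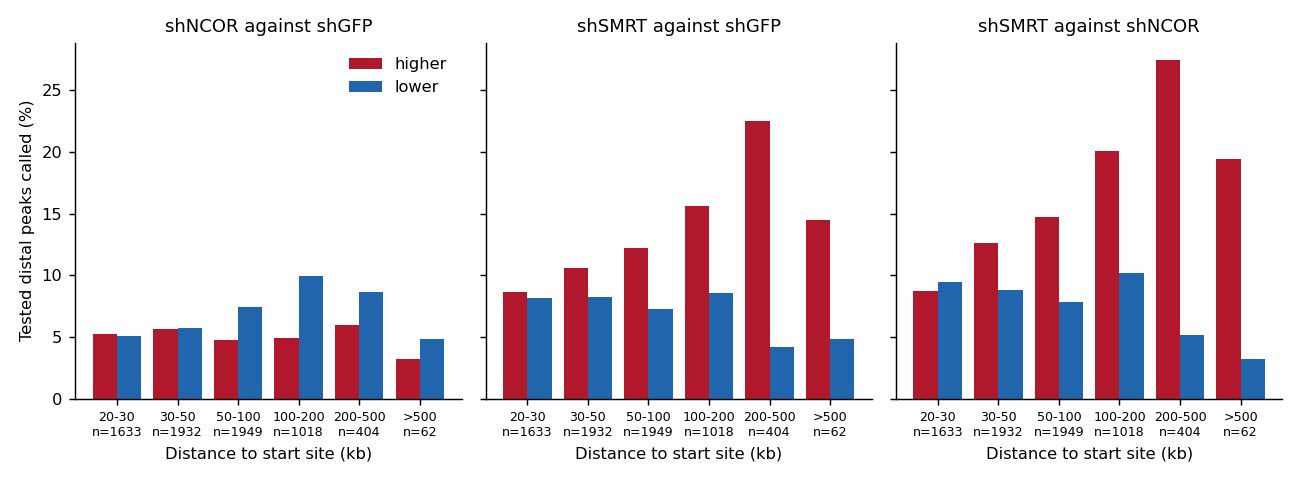
Percent of tested distal peaks called higher (red) or lower (blue) at adjusted p under 0.05, by distance to the nearest start site in kb, with the number of peaks in each bin, for the 3 comparisons. The red bars of the middle panel climb from 8.63% to 22.5% between 20 and 500 kb, and those of the right panel from 8.7% to 27.5%, with lower bars beyond 500 kb.

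Farther peaks were also weaker, with a median shGFP value of 49.4 at 20 to 30 kb and 35.0 at 200 to 500 kb, so level and distance were crossed. Among the 1750 distal peaks of lowest mean value, 10.8% were higher in shSMRT up to 100 kb from the start site and 17.5% beyond. In the next 1749 these shares were 12.5% and 20.9%, in the 1749 above them 11.4% and 21.6%, and in the 1750 strongest 7.79% and 8.65%. Level itself went with direction. Of the 1750 strongest 18.5% fell and 7.94% rose in shSMRT, while of the 1750 weakest 2% fell and 12.5% rose. A weak peak, however, can enter the peak set and pass the minimum value only through the group where it is high. Distal peaks listed by all 3 libraries of 1 group and no other numbered 133 in shSMRT, 63 in shGFP and 3 in shNCOR. The part of this selection in the shares by level and distance was not tested. The near-intergenic peaks within the same 4 ranges of value had 7.22%, 7.04%, 7.26% and 5.01% higher in shSMRT, from weakest to strongest, and the promoter peaks 8.46%, 6.19%, 2.2% and 0.624%, against 12.5%, 14.4%, 13.4% and 7.94% of the distal peaks. Intron peaks outside repeats and CpG islands lay between the near-intergenic and the distal peaks, at 8.7%, 9.22%, 8.37% and 6.49%. Just inside the distance limit, at 20 to 21 kb, 8% of 200 tested peaks were higher in shSMRT and 8% lower, and just outside it, at 19 to 20 kb, 3.81% of 210 were higher and 10% lower. The nearest peak inside the limit lay 20010 bp and the nearest outside it 20000 bp from a start site.

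Peaks listed for a whole group and no other were mostly those of shSMRT. Of the distal peaks 133 stood in the lists of the 3 shSMRT libraries and in no other list, 63 in those of shGFP only and 3 in those of shNCOR only, and over all peaks these numbers were 415, 403 and 13. The shNCOR lists were the shortest over the group as a whole: the shNCOR libraries, with 6.06 to 7.88 M (mega) reads, listed 63.5% to 73.4% of the distal peaks, the shGFP libraries, with 8.94 to 10.8 M, 78.6% to 87.7%, and the shSMRT libraries, with 7.07 to 10.7 M, 67.4% to 90.1%. The part of depth in the lists was not tested.

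The largest rise after the NCOR hairpin was at a peak 26.9 kb upstream of Ranbp3l, a Ran-binding protein gene (chr15:8940839-8941319). It measured 6.71, 13.1 and 4.61 in shGFP, 85.8, 72.6 and 127 in shNCOR and 3.76, 4.54 and 7.07 in shSMRT. The 3 shNCOR libraries stood far above the other 6, which overlapped. This peak passed the minimum value of the test only through shNCOR, which its adjusted p-values do not allow for. The log2 change was 2.94 ± 0.35 in shNCOR (adjusted p = 2.88e-08) and -3.28 ± 0.35 in shSMRT against shNCOR (adjusted p = 1.02e-09). The RNA of Ranbp3l followed the same pattern, at 0.275, 0.073 and 0.115 RPKM in shGFP, 4.31, 5.55 and 5.41 in shNCOR and 0.022, 0.034 and 0.047 in shSMRT. In limma's fit on the log2(RPKM + 1) scale, used for all RNA changes, the change in shNCOR was 2.40 ± 0.10 (adjusted p = 1.89e-08).

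The other peaks with the largest rises in shNCOR also rose in shSMRT. Upstream of Ctla4, an inhibitory receptor of T cells, the Gm38137 peak shown above measured 16.8, 37.5 and 9.22 in shGFP, 103, 47.9 and 74.8 in shNCOR and 95.8, 90.8 and 99.0 in shSMRT, with all 6 knockdown libraries above the control. The log2 changes were 1.70 ± 0.26 (adjusted p = 4.62e-06) and 2.08 ± 0.26 (adjusted p = 3.21e-08), and Ctla4 RNA was listed at 0 in 8 of the 9 libraries. At 40.3 kb upstream of Tfrc, the transferrin receptor for iron uptake (chr16:32568433-32568837), the values were 23.5, 28.1 and 20.3 in shGFP, 108, 62.7 and 97.7 in shNCOR and 47.0, 65.8 and 70.7 in shSMRT. Tfrc RNA rose from 74.4, 80.6 and 78.2 RPKM to 127, 129 and 123 in shNCOR and 103, 103 and 102 in shSMRT, while its promoter peak was not called in shNCOR and fell in shSMRT by 0.43. Vegfc, a lymphatic growth factor gene, has 2 distal peaks, which differed. The one 198 kb downstream went from 11.2, 8.44 and 3.69 to 21.1, 41.3 and 31.7 in shNCOR and 36.6, 19.3 and 46.7 in shSMRT. The nearer one, at 83.1 kb, fell in shNCOR from 27.9, 17.8 and 16.6 to 2.64, 6.60 and 2.54, and measured 13.1, 11.3 and 29.7 in shSMRT. Vegfc RNA was at 0.234, 0.082 and 0.218 RPKM in shGFP, 3.12, 3.52 and 3.26 in shNCOR and 3.26, 3.72 and 4.02 in shSMRT, a rise of 1.87 ± 0.09 and 1.98 ± 0.09.

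Among the largest falls in shNCOR, some were shared with shSMRT and some were not. The peak 59.2 kb upstream of Ppp1r26, a protein phosphatase 1 regulator (chr2:28387453-28387795), measured 49.2, 40.3 and 37.8 in shGFP, 0, 3.30 and 0 in shNCOR and 9.39, 5.67 and 2.83 in shSMRT, below control in all 6 knockdown libraries. The peak 212 kb downstream of Fgf9, a fibroblast growth factor (chr14:58284514-58284757), was near 0 only in shNCOR, with 54.8, 57.2 and 45.2 in shGFP, 2.64, 3.30 and 5.07 in shNCOR and 36.6, 43.1 and 49.5 in shSMRT. Its log2 change was -2.73 ± 0.31 in shNCOR (adjusted p = 6.24e-09) and -0.26 ± 0.31 in shSMRT (adjusted p = 0.613), and the direct difference was 2.47 ± 0.31 (adjusted p = 4.55e-08). Downstream of Sema6d, a transmembrane semaphorin, the values were 79.4, 68.4 and 63.6, then 5.28, 6.60 and 12.7 in shNCOR and 76.0, 80.5 and 46.7 in shSMRT, the last overlapping the control. Sema6d RNA fell in shNCOR from 0.565, 0.540 and 0.597 RPKM to 0, 0.008 and 0.036, and was 1.24, 1.26 and 1.48 in shSMRT. The falls beside Adam6b, Itga4 (the integrin alpha 4 chain) and Celf4 (an RNA-binding protein) were -2.87 ± 0.34, -2.80 ± 0.38 and -2.55 ± 0.35. Values near 0 make these changes depend on the added 5.

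After the SMRT hairpin the largest rises, leaving aside peaks named for small RNA and unnamed genes, were from values close to 0. At 56.5 kb downstream of Maf, which encodes the macrophage transcription factor c-Maf (chr8:115650153-115650610), the peak measured 6.71, 3.75 and 5.53 in shGFP, 18.5, 6.60 and 5.07 in shNCOR and 82.6, 95.3 and 58.0 in shSMRT, a rise of 3.00 ± 0.36 (adjusted p = 1.84e-08). The 3 shSMRT libraries stood above all others. At 175 kb upstream of Serpine2, a serine protease inhibitor (chr1:80033627-80034015), the values were 4.47, 7.50 and 7.38 in shGFP, 7.92, 9.90 and 10.2 in shNCOR and 102, 79.4 and 55.2 in shSMRT. The peak 391 kb downstream of Tmem161b, a membrane protein gene (chr13:84613012-84613305), gave 2.24, 2.81 and 5.53 in shGFP, 5.28, 8.25 and 15.2 in shNCOR and 62.0, 55.6 and 42.5 in shSMRT. The peak upstream of Otos, an inner ear protein gene (chr1:92725136-92725312), was at 0 in all 3 shGFP libraries, at 19.8, 6.60 and 5.07 in shNCOR and at 33.8, 17.0 and 42.5 in shSMRT, and no fold is given against 0. The peak beside the antisense RNA gene Slain1os measured 2.24, 5.62 and 0 in shGFP, 5.28, 3.30 and 2.54 in shNCOR and 55.4, 43.1 and 41.0 in shSMRT. Each of these 5 peaks stood in the lists of 3 libraries only. Without the shSMRT libraries none of them reached a value of 10 in 3 libraries. They were therefore tested only through the group where they are high, which the adjusted p does not allow for.

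A pair of peaks between the start sites of Eps8l3, an actin-signalling adaptor gene, and Csf1 rose in both knockdowns. The first (chr3:107849744-107850184) measured 7.83, 17.8 and 16.6 in shGFP, 54.1, 42.9 and 62.2 in shNCOR and 92.0, 73.7 and 83.5 in shSMRT. The second (chr3:107852854-107853114) measured 4.47, 1.87 and 5.53 in shGFP, then 15.8, 14.8 and 20.3 in shNCOR and 47.9, 65.8 and 56.6 in shSMRT, a graded order with no overlap between groups. Eps8l3 RNA was at most 0.021 RPKM in any library. Csf1, the macrophage colony-stimulating factor, has its start site 92.5 kb from the second peak, and its RNA came to 0.283, 0.104 and 0.275 RPKM in shGFP, 0.186, 0.195 and 0.268 in shNCOR and 6.00, 5.06 and 5.09 in shSMRT (change in shSMRT 2.39 ± 0.09, adjusted p = 6.47e-09). The 3 distal peaks named for Csf1 itself, which was singled out after its values were seen, all rose in shSMRT, and their summed value came to 64.8, 65.6 and 54.4 in shGFP, 88.4, 102 and 97.7 in shNCOR and 173, 187 and 164 in shSMRT. Of the peaks of largest change against shGFP, 15 had the start site of an RNA-tested gene within 250 kb, in 48 pairs of a peak and a gene. In 5 pairs the RNA changed by at least 1 log2 unit, in the peak's direction in all 5 (Ranbp3l, Vegfc, Csf1, Fam13c and Phyhipl). Ranbp3l, Vegfc and Csf1 lay below 1 RPKM in shGFP and passed the RNA minimum only through the groups where they are high. Smaller called RNA changes went both ways. Against the peak went Pcyt1a and Tnk2 (Tfrc peak) in shNCOR. In shSMRT these were Ampd2 and Gstm1 (second Eps8l3 peak), Ralgds (Ppp1r26 peak) and Rbpj. The pairs were not compared with all tested genes.

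Falls in shSMRT were largest beside BC039966, Ppp1r26, Ube2e3, Itga4, Rbpj and Fam13c. The BC039966 peak measured 57.0, 45.9 and 50.7 in shGFP, 5.28, 16.5 and 12.7 in shNCOR and 0, 9.07 and 7.07 in shSMRT, below control in both knockdowns. Itga4 had 10 distal peaks, of which 5 fell and 2 rose in shSMRT, and 1 fell and none rose in shNCOR. Of the 2 named for their falls, the one 165 kb upstream (chr2:79089848-79090292) measured 122, 89.1 and 112 in shGFP, 133, 116 and 127 in shNCOR and 39.4, 22.7 and 17.0 in shSMRT, low in shSMRT alone. The other, 109.5 kb upstream, measured 48.1, 45.9 and 56.2 in shGFP, 10.6, 0 and 1.27 in shNCOR and 14.1, 23.8 and 17.0 in shSMRT, lowest in shNCOR. Itga4 RNA came to 142, 155 and 150.4 RPKM in shGFP, 149, 178 and 168 in shNCOR (not called, adjusted p = 0.0707) and 106, 109.9 and 113 in shSMRT (change -0.44 ± 0.06, adjusted p = 6.37e-05). The Rbpj peak, upstream of the DNA-binding effector of Notch signalling (chr5:53443994-53444374), fell from 115, 82.5 and 112 to 36.6, 32.9 and 17.0 in shSMRT, a change of -1.72 ± 0.22. Rbpj RNA rose in shSMRT from 32.7, 35.8 and 33.6 to 40.7, 40.0 and 40.6 RPKM. Upstream of Fam13c the peak fell from 49.2, 40.3 and 59.0 to 15.0, 26.1 and 2.83, and its promoter peak (-2.08) and RNA (-1.40 ± 0.07) fell as well.

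**Figure D3:**
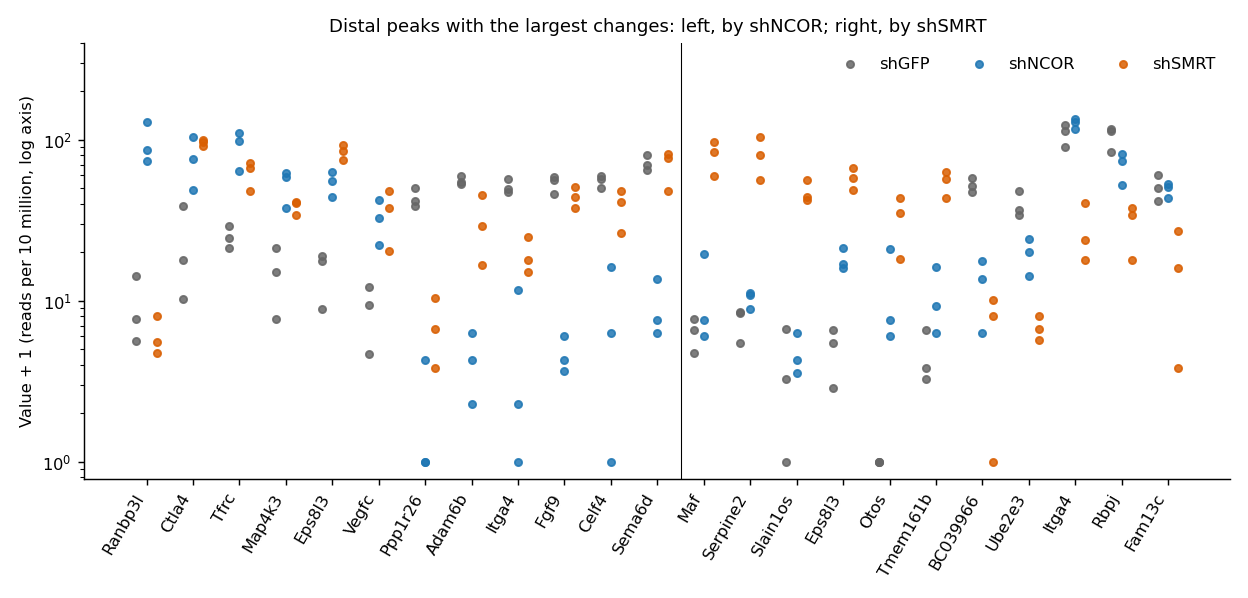
Value of the 23 distal peaks with the largest changes (named by nearest gene), 1 point per library, on a log axis of the value + 1: left, peaks chosen for shNCOR, and right, peaks chosen for shSMRT. The 3 shNCOR points of Ranbp3l and the 3 shSMRT points of Maf, Serpine2 and Slain1os stand apart from the 6 others, while Ctla4, Tfrc and Eps8l3 are high in both knockdowns.

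Directly between the knockdowns, the largest difference was the one at Ranbp3l given above. The 2 largest in the other direction were at Trim52 and Maf. Both joined a rise in shSMRT to a lower mean in shNCOR, whose libraries overlapped the control at Maf. Upstream of Trim52, a gene of the TRIM ubiquitin ligase family (chr14:106012050-106012483), the peak measured 27.9, 31.9 and 35.0 in shGFP, 7.92, 6.60 and 3.81 in shNCOR and 98.6, 88.5 and 96.2 in shSMRT, 3 levels with no overlap. The difference of shSMRT from shNCOR was 3.18 ± 0.28 (adjusted p = 3.63e-12). A second Maf peak, 212 kb from the start site, gave 35.8, 35.6 and 22.1 in shGFP, 5.28, 13.2 and 31.7 in shNCOR and 171, 150.9 and 167 in shSMRT, and the difference was 3.14 ± 0.28 (adjusted p = 3.12e-12). A peak of the antiproliferative gene Btg1 (chr10:96686104-96686390) was also lower in shSMRT than in shNCOR, and measured 32.4, 30.0 and 32.3 in shGFP, 50.1, 49.5 and 53.3 in shNCOR and 15.0, 17.0 and 7.07 in shSMRT. Only the fall in shSMRT passed the test against control (-1.07 ± 0.29, adjusted p = 0.0076). It was 1 of 13 distal peaks of Btg1, of which 4 rose and none fell in shNCOR and 2 rose and 1 fell in shSMRT, with sums of 633, 643 and 672 in shGFP, 830.2, 858 and 934 in shNCOR and 688, 714 and 727 in shSMRT. Btg1 RNA rose in both knockdowns, from 36.4, 35.9 and 37.2 to 89.1, 85.7 and 88.8 in shNCOR and 70.9, 69.3 and 70.3 RPKM in shSMRT.

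The 5 strongest distal peaks changed less. The highest, chr1:24611602-24616138, is 4537 bp wide and lies upstream of the collagen gene Col19a1. It measured 1109, 965 and 921 in shGFP, 1411, 1822 and 1321 in shNCOR and 936, 1148 and 1565 in shSMRT, and its rise in shNCOR was 0.59 ± 0.10. The share of all reads that fell in peaks on the mitochondrial chromosome moved with it, at 0.429% to 0.511% in shGFP, 0.584% to 0.749% in shNCOR and 0.423% to 0.616% in shSMRT, and its part in the result was not tested. The peak near Trappc6b, of a vesicle tethering complex, fell in shSMRT from 739, 713 and 724 to 478, 500.3 and 511, and a second Rbpj peak fell from 817, 727 and 755 to 529.5, 541 and 591. The Ankdd1a peak was not called in either knockdown, and that of Smim38 fell by 0.25 and 0.26.

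Whole loci moved together in several places, counted here by the gene name of their distal peaks. Maf had 10, all tested, at 56.5 to 293 kb from the start site: 9 rose in shSMRT, 2 fell in shNCOR and all 10 were higher in shSMRT than in shNCOR. Their summed value came to 324, 312 and 331 in shGFP, 166, 163 and 271 in shNCOR and 919, 835 and 804 in shSMRT. Maf RNA was too low for the RNA test, listed at 0 in shGFP, at most 0.012 RPKM in shNCOR and 0.311, 0.233 and 0.239 in shSMRT. Of the 5 peaks of other classes named for Maf itself, 3 rose in shSMRT and none fell, so the rise was not confined to distal peaks. The 10 peaks of other classes and other genes within 1 Mb had a median change of -0.02 in shSMRT, with none called. Prdm1, which encodes the repressor Blimp-1, showed a like pattern: 9 of 12 peaks rose in shSMRT, with sums of 376, 359 and 379 in shGFP, 347, 256 and 368 in shNCOR and 991, 924 and 919.7 in shSMRT. Prdm1 RNA was listed at 0 in the 6 other libraries and at 0.322, 0.163 and 0.310 RPKM in shSMRT, and its promoter peak was not called.

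Tbl1xr1 and Map4k3 were the protein-coding loci with the most peaks higher in shNCOR. Tbl1xr1 encodes a TBL1-related subunit of the NCOR and SMRT complexes, and 11 of its 13 distal peaks rose in shNCOR and 4 in shSMRT. The sums were 1228, 1088 and 1193 in shGFP, 1854, 1830.3 and 1845 in shNCOR and 1279, 1349 and 1302 in shSMRT, and 7 peaks were lower in shSMRT than in shNCOR (3 under quantile normalization, 4 under scaling to reads in peaks). Tbl1xr1 RNA rose in both, from 7.17, 7.21 and 7.44 to 10.9, 10.1 and 11.4 in shNCOR and 9.51, 10.1 and 10.2 RPKM in shSMRT, while its promoter peak was not called. Map4k3, a kinase of stress and amino-acid signalling, had 6 of 8 peaks higher in shNCOR and 8 of 8 in shSMRT. Its peaks summed to 309, 313 and 372 in shGFP, 636, 599 and 606 in shNCOR and 660.0, 682 and 751 in shSMRT, with all 6 knockdown libraries above the control. Map4k3 RNA went from 3.55, 3.40 and 3.62 RPKM in shGFP to 6.69, 7.04 and 7.79 in shNCOR and 6.95, 8.00 and 7.64 in shSMRT, changes of 0.85 ± 0.06 and 0.91 ± 0.06.

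Falls were gathered at Ccnd1 and Ube2e3. Ccnd1 encodes cyclin D1, which drives entry into the cell cycle. Of its 9 distal peaks 5 fell in shNCOR and 8 in shSMRT (7 and 6 under scaling to reads in peaks), and the sums were 1361, 1267 and 1299 in shGFP, 767, 592 and 799 in shNCOR and 729.5, 767 and 811 in shSMRT. The largest change among them was at chr7:145047801-145048373, from 204, 130.3 and 149 to 43.5, 16.5 and 41.9 in shNCOR and 73.2, 44.2 and 65.1 in shSMRT. Ccnd1 RNA fell with them, from 182, 184 and 186 RPKM to 77.3, 81.4 and 79.3 in shNCOR and 117, 119 and 115 in shSMRT, as did the promoter peak (-0.49 and -0.40). At Ube2e3, a ubiquitin-conjugating enzyme gene, 9 of 12 peaks fell in shSMRT and none was called in shNCOR. The sums there were 1195, 1131 and 1124 in shGFP, 1086, 1145 and 1213 in shNCOR and 589.6, 616 and 577 in shSMRT, and 10 of the peaks were lower in shSMRT than in shNCOR. Ube2e3 RNA was not called in either comparison, at 29.3, 29.8 and 30.1 RPKM in shGFP and 28.1, 25.9 and 28.9 in shSMRT (adjusted p = 0.0813).

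**Figure D4:**
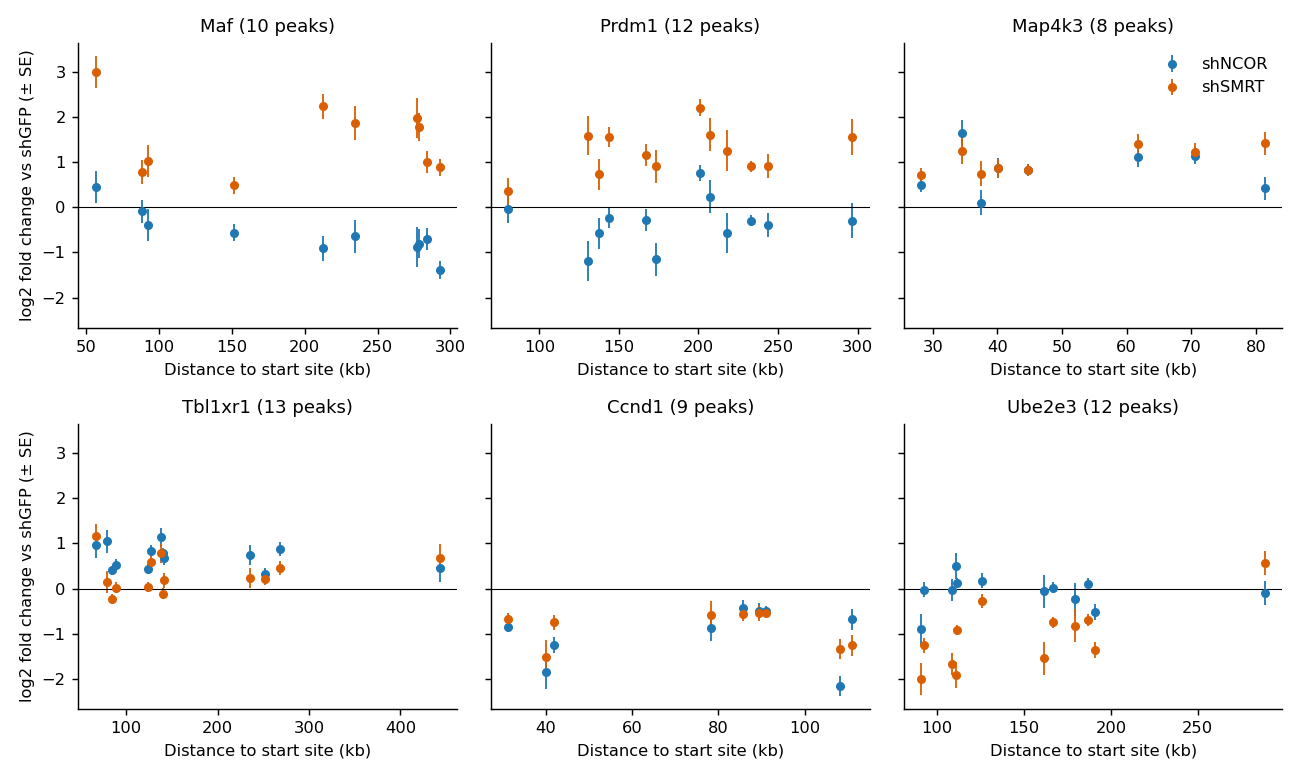
Log2 change against shGFP with its standard error for every distal peak of 6 genes, by distance to the gene's start site in kb (blue, shNCOR; orange, shSMRT; both share the 3 shGFP libraries). Maf and Prdm1 peaks lie above 0 in shSMRT and mostly below it in shNCOR, Map4k3 peaks above 0 in both, Tbl1xr1 peaks above 0 in shNCOR, Ccnd1 peaks below 0 in both, and Ube2e3 peaks below 0 mainly in shSMRT.

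The genes with the most distal peaks were Klf4 (19), 4930459C07Rik (18), 1700016G22Rik (17), Ank (16) and Ly86 (16). At Klf4, a zinc-finger factor of monocyte differentiation, 5 peaks fell in shNCOR, 3 fell and 2 rose in shSMRT, and the median changes were -0.13 and -0.23. Klf4 RNA fell from 8.07, 8.97 and 8.48 RPKM to 2.69, 2.23 and 2.02 in shNCOR and 5.66, 5.79 and 5.21 in shSMRT. Ank, a pyrophosphate transport gene, had 7 peaks higher in shSMRT and 4 in shNCOR with none lower, and Ank RNA rose from 127, 131 and 129 RPKM to 164, 168 and 166 in shNCOR and 338, 334 and 343 in shSMRT. At Ly86, the partner of an accessory Toll-like receptor, 1 of 16 peaks rose in each knockdown and none fell, although Ly86 RNA fell by 0.93 in shNCOR and 0.40 in shSMRT. Of the 18 peaks of 4930459C07Rik, 5 rose and 1 fell in shNCOR, and of the 17 of 1700016G22Rik, 2 rose.

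The 4 distal peaks named for Tlr4, the lipopolysaccharide receptor, all rose in shNCOR (3 under either other scaling), with sums of 235, 217 and 243 in shGFP, 371, 358 and 382 in shNCOR and 208, 206 and 224 in shSMRT. Tlr4 RNA rose in both knockdowns, by 0.83 ± 0.04 in shNCOR and 0.42 ± 0.04 in shSMRT. In shSMRT, however, none of the 4 peaks rose and 1 fell (none under scaling to reads in peaks). All 5 peaks of Ly6e, an interferon-inducible surface protein gene, fell in shNCOR and 3 fell in shSMRT. The 4 peaks of Tnc, the matrix protein tenascin C, which was singled out after its values were seen, all rose in shSMRT, from sums of 89.5, 75.9 and 112 to 219, 296 and 233, and Tnc RNA went from 0.074, 0.018 and 0.023 RPKM in shGFP to 7.12, 7.66 and 6.92 in shSMRT. Tnc RNA and the Tnc peak at chr4:64090727-64090925 passed the minimum of their test only through shSMRT. At the non-coding gene Gm17746, 6 of 13 peaks fell in shNCOR, 6 rose in shSMRT, and 11 were higher in shSMRT than in shNCOR.

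The largest rise of any distal peak in shSMRT was at the Mir148a locus, which was chosen for display after its values were seen. Mir148a encodes a microRNA (its mature arms lie at chr6:51269829-51269850 and chr6:51269867-51269888 on the minus strand), and the 2 mature RNAs are shown because the peaks are named for them; capitals mark the seed, bases 2 to 8, by which a microRNA pairs with its targets (RefSeq, GRCm38.p6).
mmu-miR-148a-3p: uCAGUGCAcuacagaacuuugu
mmu-miR-148a-5p: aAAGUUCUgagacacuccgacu
The seeds of the 2 arms differ. Of the 4 distal peaks named for this gene, 3 rose in shSMRT and 2 in shNCOR. At chr6:51170917-51171214 the values were 2.24, 8.44 and 5.53 in shGFP, 38.3, 39.6 and 20.3 in shNCOR and 86.4, 125 and 113 in shSMRT, a rise of 3.47 ± 0.30 in shSMRT (adjusted p = 1.24e-12). At chr6:51172890-51173406 they were 22.4, 14.1 and 28.6 in shGFP, 64.7, 49.5 and 49.5 in shNCOR and 166, 172 and 188 in shSMRT, again in 3 separate steps. The RNA table lists the Mir148a gene at 0 in all 9 libraries.

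Distal peaks also lay in runs. With gaps of up to 12.5 kb they formed 4840 runs, of which 3546 were single peaks, 818 pairs and 476 runs of 3 or more, holding 1877 peaks. The longest, 17 peaks over 52.9 kb named for 4933433H22Rik and Zfp36l2, had 1 peak lower in shNCOR and none called in shSMRT. Of the 2 runs of 10 peaks, the one named for Gm17746 had 6 lower in shNCOR and 3 higher in shSMRT. Runs of at least 3 peaks in which every peak was called one way numbered 5 higher and 3 lower in shNCOR, and 8 higher and 7 lower in shSMRT. In shNCOR the higher ones were 2 at Tbl1xr1 and 1 each at Hilpda (a lipid-droplet protein), Hdac4 (a class IIa histone deacetylase) and Cxcr4 (a chemokine receptor), and the lower ones lay at Ly6e, B4galt6 and Ccnd1. In shSMRT, higher runs included those at Map4k3, Tnc, Maf, Prdm1 and 4930554I06Rik, and lower runs those between Fth1 (the ferritin heavy chain) and Incenp, and at Lpin1, Slc7a13, Olfm1 and Ube2e3. The 3 Lpin1 peaks, near a phosphatidate phosphatase gene, summed to 528, 507 and 532 in shGFP, 308, 284 and 285 in shNCOR and 272, 265 and 205 in shSMRT.

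Nearest genes of higher peaks in both knockdowns, and of lower peaks in shNCOR, moved in RNA with the peak more often than all tested genes did, while the RNA beside lower peaks in shSMRT split about as over all genes. In shNCOR the genes with at least 1 higher distal peak included 157 tested for RNA, of which 75 rose (47.8%) and 20 fell (12.7%), against 17.6% and 20% of all 10789 tested genes. The genes with a lower distal peak included 189 tested, of which 26 rose and 68 fell (36%), and among the 1365 genes with distal peaks but none called 19% rose and 23.8% fell. In shSMRT 135 of 310 tested genes with a higher distal peak rose (43.5%) and 68 fell (21.9%), against 24.4% and 31.4% of all tested genes. Beside lower distal peaks 70 of 253 rose (27.7%) and 91 fell (36%), both shares above those of all tested genes, and with none called 30.7% of 1179 rose and 29.9% fell. A gene with both kinds of peak counts in both sets. At promoters in shNCOR, 112 of 233 tested genes with a higher peak rose and 25 fell, and 63 of 83 with a lower peak fell and none rose. At promoters in shSMRT, 45 of 59 with a higher peak rose and 4 fell, and of 1912 with a lower peak 772 fell (40.4%) and 349 rose (18.3%). These shares describe genes, which are not replicates, and were not tested.

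**Figure D5:**
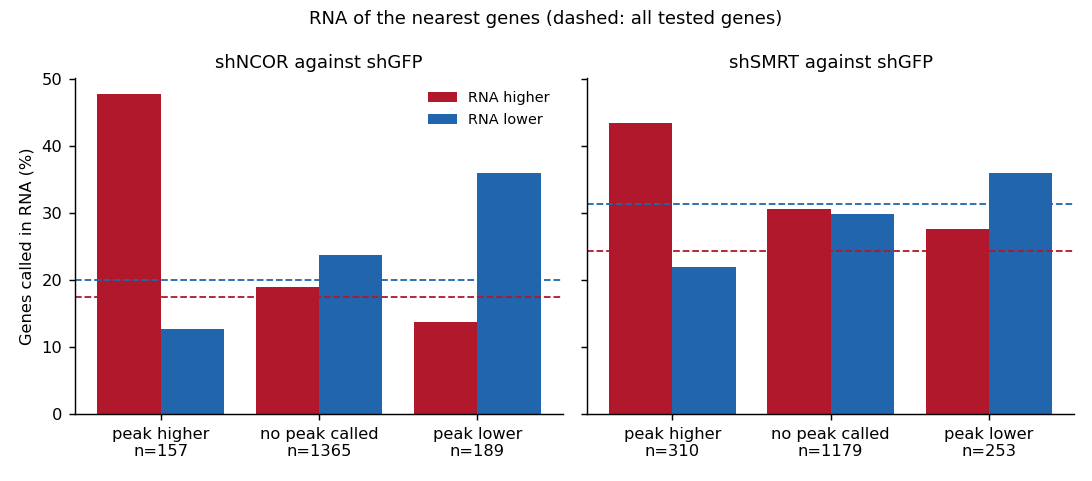
Percent of RNA-tested genes that were called higher (red) or lower (blue) in RNA, grouped by whether a distal peak named for the gene was called higher, lower or not at all, for shNCOR (left) and shSMRT (right); dashed lines give the shares over all 10789 tested genes. The red bar is highest over genes with a higher peak (47.8% and 43.5%), and the blue bar over genes with a lower peak (36% in both).

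By distance, in shNCOR 48.9%, 54.9% and 50% of the tested genes with a higher distal peak up to 50 kb, at 50 to 100 kb and over 100 kb away rose, and in shSMRT 47.8%, 49.0% and 42.7%. Most promoter peaks of these genes were not called. Of 132 genes with a higher distal peak in shNCOR and a tested promoter peak, 16 had a higher promoter peak, 2 a lower one and 114 neither. Of 157 with a lower distal peak in shNCOR, 5 had a higher promoter peak, 5 a lower one and 147 neither. In shSMRT 10 of 270 genes with a higher distal peak had a higher promoter peak, 68 a lower one and 192 neither, and of 209 with a lower distal peak these numbers were 3, 60 and 146. Over all tested promoter peaks 3.13% were higher and 1.44% lower in shNCOR, and 1.52% were higher and 22.8% lower in shSMRT. Promoter peaks called in the distal peak's direction were thus more frequent than over all promoters in every set. Lower promoter peaks beside higher distal peaks in shSMRT were more frequent too. These differences were not tested.

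Genes with an RNA change of at least 1 log2 unit and a called distal peak gave matches and mismatches, named here after their values were seen. In shNCOR 12 rose and 1 fell beside higher peaks, and 3 rose and 8 fell beside lower peaks. In shSMRT 21 rose and 1 fell beside higher peaks, while 5 rose and only 2 fell beside lower peaks. With distal peaks but none called, 14 rose and 8 fell in shNCOR, and 32 rose and 7 fell in shSMRT. Cxcr4 RNA rose in both knockdowns, from 1.49, 1.93 and 1.61 RPKM to 12.1, 13.3 and 11.9 in shNCOR and 8.00, 8.03 and 7.85 in shSMRT, with 3 of its 6 distal peaks higher in shNCOR and 2 in shSMRT. Among these 2, the Cxcr4 peak at chr1:128514307-128514598 measured 5.59, 7.50 and 4.61 in shGFP and 52.6, 71.5 and 65.1 in shSMRT. It passed the minimum value only through shSMRT, which its adjusted p does not allow for. S1pr1, a sphingosine-1-phosphate receptor, had 4 of 10 peaks higher in shNCOR, and its RNA changed by 1.58 ± 0.04. Against this, Abca1, the cholesterol exporter, rose in RNA in shNCOR by 1.24 ± 0.07 while its peak at chr4:53187155-53187503 fell from 66.0, 95.6 and 64.5 to 42.2, 29.7 and 38.1. The Abca1 promoter peak rose by 0.59 there.

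Lists of nearest genes were described by counts alone. Over all tested distal peaks 5.19% rose and 6.83% fell in shNCOR, and 12% rose and 7.73% fell in shSMRT. The macrophage lineage list had 78 distal peaks at 11 of its 22 genes: 7 rose and 9 fell in shNCOR and 15 rose and 10 fell in shSMRT, with median changes of -0.08 and 0.01. A few loci gave most of these calls, the falls in shSMRT excepted. Tlr4 gave 4 of the rises in shNCOR, and Klf4 5 and Maf 2 of the falls there. Maf gave 9 and Klf4 2 of the rises in shSMRT. Besides the Maf peaks, a Zeb2 peak (chr2:45197220-45197802), near the gene of a repressor that maintains macrophage identity, rose in both and measured 33.5, 23.4 and 19.4 in shGFP, 56.8, 80.9 and 72.3 in shNCOR and 82.6, 101 and 92.0 in shSMRT. A Runx1 peak fell in shNCOR from 20.1, 25.3 and 15.7 to 1.32, 0 and 7.61, and an Irf8 peak in shSMRT from 149.8, 157 and 140.2 to 115, 125 and 63.7. Of the 22 peaks of the inflammatory list, 2 rose in shNCOR, both at Ccl2, and 5 rose in shSMRT, with none lower and a median of 0.35 in shSMRT. They included an Il6 peak that went from 27.9, 35.6 and 36.9 to 72.3, 61.3 and 50.9, and a Tnfaip3 peak from 41.4, 32.8 and 40.6 to 73.2, 54.5 and 70.7. The nuclear receptor and lipid list had 14 peaks (0 higher and 1 lower in shNCOR, 1 and 2 in shSMRT), the osteoclast list 4 and the interferon-stimulated list 3, none of these 7 called. Of 6 peaks of genes of other cell types 3 rose in shSMRT, a Gata3 peak from 2.24, 3.75 and 0 to 16.0, 17.0 and 24.1 among them.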

How the data were processed

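The deposited ATAC-seq table holds, for each of 51984 peaks merged over the libraries, a normalized value per library. These values, as deposited by the authors and per the file headers, are reads per 10000000 reads of the library; every value was a whole multiple of the worth of 1 read, within 0.1 read. RNA values are the authors' deposited RPKM per gene. Tools in the submitters' processing notes are HOMER, MACS2, Bowtie2, DESeq2 and HISAT2, with no version and no role, and both mm10 and mm9 stand there as builds. Peak coordinates were taken as mm10. Distal peaks, nearest genes and gene lists were chosen with earlier results of these data known.

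Computed here: limma 3.58.1 (R 4.3.3) with an intensity trend, all 9 libraries of an assay in 1 fit, on log2(value + 5) for the 51466 peaks with at least 10 in 3 libraries, and on log2(RPKM + 1) for RNA, over 10789 genes that reached 1 RPKM in 3 libraries. P-values were Benjamini-Hochberg adjusted over all peaks or genes tested. Sums over peak classes were compared by exact two-sided permutation tests. Scripts were tested on simulated data.

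Named peaks were the 6 largest rises and 6 largest falls per comparison with shGFP (4 and 4 between the knockdowns) among called peaks with no overlap between groups, 1 per gene, with unnamed and small RNA genes passed over, the 5 strongest peaks, the 5 genes with most peaks, loci and runs of most calls, and up to 2 peaks per list and direction. Libraries held 6.06 to 10.8 M (mega) ATAC reads, which limits the precision of peaks near the minimum value. Same-numbered libraries correlated between -0.06 and 0.10, so replicate numbers were not used as pairs. Of the 72 samples, 54 were not analysed here, and the RNA of the gene encoding SMRT is not reported here.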

Additional observations from a re-analysis of the deposited data

How the results depend on the processing

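For the named peaks of largest change per comparison, direction and side of the threshold stayed the same in all 479 recomputations in which the peak was tested. The Otos peak fell below a higher minimum of 20 in 3 libraries, so it was not tested under that setting and is not counted there. The strongest peaks, the peaks of gene lists and those singled out after their values were seen were not recomputed. Of the other recomputed results, 157 stayed within the set limits, 15 moved and 1 was weaker. Counting only peaks beyond 50 kb, a smaller set by construction, left 169 higher and 284 lower in shNCOR, 497 and 249 in shSMRT, and 614 and 280 in shSMRT against shNCOR. Scaling to the reads in peaks lowered the falls in shSMRT to 325 and those of shSMRT against shNCOR to 228, and quantile normalization gave 281 for the latter. The distal share of all reads differed between shSMRT and shGFP by 0.0217 percentage points, against a difference of 0.760 in the share of reads in peaks (exact permutation p over 3 groups 0.946). Leaving out 1 library at a time gave 197 to 302 peaks higher and 278 to 486 lower in shNCOR, 590 to 686 and 329 to 446 in shSMRT, and 764 to 1020 and 477 to 524 between the knockdowns. With limma voom on reads recovered from the values, chosen after seeing the data in place of the planned edgeR fit, which was not run, the counts were 372 and 376, 1026 and 629, and 853 and 573. The replicate block, although same-numbered libraries did not deviate together, gave 351 and 472, 837 and 517, and 993 and 575. Read depth limits the weak peaks: 1 read was worth 0.922 to 1.65 of the value.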
